A study of Mus musculus with 20 samples.

Results

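The comparison described here set mouse embryonic fibroblasts exposed to actinonin for 48 h (4 samples) against the same kind of cells exposed for 6 h (4 samples), chosen by sample title from the 20 samples of the series. Mouse embryonic fibroblasts (MEFs) are connective tissue cells cultured from embryos. These had a Balb/c background and grew in medium with serum and uridine. Both groups received actinonin at 150 µM, so that they differed in the length of exposure. The 4 carrier samples, used here as context, received ethanol at 3 µl/ml and carry a time of 0 h in their titles. The labels do not say whether carrier cells were harvested at the start, so that time in culture and time in actinonin cannot be told apart. Each sample pooled RNA from 4 plates. The labels name the samples of a group independent without saying how their cultures began, and p-values here reflect only the variation among them, which may be technical.

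Actinonin is a hydroxamate that inhibits peptide deformylase, the enzyme that takes the formyl group off new proteins in bacteria and mitochondria. Faulty protein synthesis in mitochondria is known to activate the integrated stress response, in which phosphorylation of eIF2 alpha slows translation in the cytosol while ATF4 and CHOP switch on genes for amino acid supply. Sustained mitochondrial stress can also alter growth, lipid synthesis and the turnover of proteins and organelles. The comparison asks which transcripts moved between an early and a late time of exposure.

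Transcripts were measured on 2-colour arrays, each holding 1 sample in Cy3 and 1 in Cy5. The 48 h samples all lay on slide 2. Of the 6 h samples, 2 lay on slide 2 and 2 on slide 1, together with carrier samples. Within slide 2, 2 arrays held a 48 h sample and a 6 h sample side by side with opposite dyes, and these are called the shared arrays. On 9 of the 10 arrays 50.8% to 58.7% of spots stood well above background. The values were 66.4% and 70.5% for the channels of array 7, which held 1 carrier and 1 48 h sample. The number of arrays limits the precision.

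Of 24250 genes and transcripts tested, 14242 of them named, 3822 were higher at 48 h (15.8%) and 4352 were lower (17.9%) at an adjusted p under 0.05 (limma with dye, slide and array in the model, Benjamini-Hochberg adjustment). In all, 8174 (33.7%) were called, and counts of called list members below are to be read beside these shares. The groups did not overlap in 15.3% of all genes tested with 48 h higher and in 17.6% with 48 h lower. Most changes were small: among called genes the median absolute log2 difference was 0.30. At least 2-fold changes were called for 65 higher genes (0.268%) and 94 lower genes (0.388%). Within slide 2 alone, with 2 samples of 6 h and 4 of 48 h, 3919 genes were higher and 4506 lower. Differences below are log2 of 48 h over 6 h ± standard error with n = 4 samples a group. Levels are log2 intensities less the dye and slide terms of the fit, with the 2 slide 1 samples first among the 6 h values.

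The shared arrays measured both times on the same spots, and a dye effect that acts one way on 1 array acts the other way on the other. Their ratios correlated at r = 0.53 over 24248 genes, as a description of 2 arrays of different samples. Among called genes that changed at least 2-fold, r was 0.99. The shared arrays took part in choosing those genes, so that a high r was built in and is no check. A fit without the shared arrays called 3452 genes, and 3279 of them (95.0%) moved in the same direction on both shared arrays, while 8 moved the opposite way on both. Over all genes tested, 61.9% had the same sign on both shared arrays. This is a looser measure than the 95.0%, which also requires the direction of the fit. That fit joins 6 h samples of slide 1 to 48 h samples of slide 2 through the carrier samples. All 214 of its called genes with at least 2-fold changes had the same direction on both shared arrays.

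**Figure D1:**
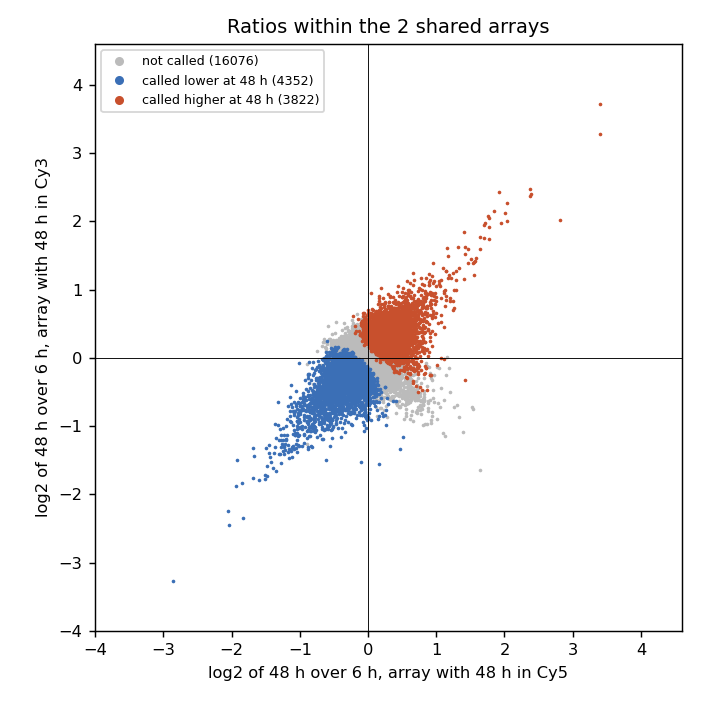
Each point is 1 of the genes tested, placed by its log2 ratio of 48 h over 6 h on the shared array with 48 h in Cy5 (x axis) and on the one with 48 h in Cy3 (y axis). Colours mark the 3822 genes called higher, the 4352 called lower and the rest, and genes with large changes lie along the diagonal in the upper right and lower left.

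The largest rise was that of Cdsn, the gene of the keratinocyte adhesion protein corneodesmosin, which stood at 11.73, 11.75, 11.86 and 11.97 at 6 h and at 15.32, 15.18, 15.18 and 15.42 at 48 h. It rose by 3.45 ± 0.10 on the log2 scale (adjusted p = 2.78e-13). Car6, a secreted carbonic anhydrase, was at 8.33, 7.72, 7.71 and 7.78 at 6 h and at 11.14, 11.47, 11.30 and 11.19 at 48 h, a rise of 3.38 ± 0.14 or 10.4-fold. All 48 h values of both genes lay above all 6 h values, which the rule that chose the largest rises and falls required. For Car6, 1 slide 1 sample of 6 h stood above its group. Against the carrier, the same fit gave Cdsn a difference of 1.20 at 6 h and 4.66 at 48 h, and Car6 0.97 and 4.35. The comparisons with the carrier share samples with the comparison of the times and are given as context only.

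Of the other large rises, Cox6a2 and Cxadr were already above the carrier at 6 h, by 0.71 and 0.80. Tenm4, a teneurin of the cell surface, rose by 2.33 ± 0.09 by its brightest probe, while a dimmer probe gave 0.03 (adjusted p = 0.862). By the brightest probe it went from 10.42 to 10.66 at 6 h to 12.74 to 12.87 at 48 h. The glycosyltransferase gene B4galnt2 rose by 2.27 ± 0.08 and the actin-binding gelsolin relative Avil by 1.94 ± 0.07. Plin4, whose product coats lipid droplets, rose by 2.20 ± 0.08, from 7.08 to 7.37 at 6 h to 9.17 to 9.47 at 48 h. Cox6a2, the isoform of a cytochrome c oxidase subunit known from heart and skeletal muscle, was at 9.63, 9.32, 9.90 and 9.88 at 6 h and at 11.73, 11.88, 11.84 and 11.67 at 48 h, a rise of 2.12 ± 0.12. Cxadr, a junction protein also known as the receptor for coxsackievirus and adenovirus, rose by 1.93 ± 0.08 (0.29 by another probe), and Ecel1, a membrane protease, 3.73-fold. In each of these 7 genes the 2 groups did not overlap, again by the rule that chose them. The serine protease gene Try5 was well above background in all 4 samples of 48 h and in none of 6 h, and was at least 1.69-fold higher. On the same terms Nrip2 was at least 1.49-fold and Map3k19 at least 1.45-fold higher, and Nrip2 was not called without the shared arrays (0.68). These bounds, in log2 0.75, 0.57 and 0.54, hold only for the brightest probe in the main fit. Other probes of Nrip2 and Map3k19 gave 0.27 and 0.46. Without the shared arrays Try5 stood at 0.70 and Map3k19 at 0.48.

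Gsta1, Gsta2 and Gsta4 encode alpha class glutathione S-transferases, which couple glutathione to reactive compounds. Gsta1 stood at 8.34 to 8.63 at 6 h and at 10.27, 10.49, 10.36 and 10.35 at 48 h, a rise of 1.86 ± 0.08 (adjusted p = 1.41e-11). Gsta2 rose by 1.88 ± 0.08, Gsta4 2.14-fold and Gm10639, a gene that lies between Gsta1 and Gsta2 in the RefSeq table, by 2.23 ± 0.09 (0.50 by another probe). The members of this class are close in sequence, so that a probe can bind transcripts of more than 1 of them. Of the 25 genes listed as NRF2 targets and glutathione genes, NRF2 being the main transcription factor of the response to oxidants, 8 rose and 6 fell, with a median of -0.02, and 5 rose and 5 fell without the shared arrays. Osgin1, a growth inhibitor induced by oxidants, fell by 0.83 ± 0.08 in the same list.

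The largest fall was that of Cck, the gene of the peptide hormone cholecystokinin, which stood at 12.63, 12.47, 12.45 and 12.44 at 6 h and at 9.49, 9.27, 9.60 and 9.75 at 48 h. It fell by 2.99 ± 0.09, and its level at 6 h was 7.95-fold that at 48 h (adjusted p = 4.72e-13). The groups lay far apart, and the slide 1 sample with the highest 6 h value of Cck was the one that stood highest for Car6. Against the carrier Cck differed by -0.51 at 6 h and by -3.50 at 48 h.

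Ccl9, Ccl7 and Ccl2, all chemokine genes, came next among the falls. Ccl2, which draws monocytes to tissue, was at 15.16, 15.34, 15.19 and 15.10 at 6 h and at 13.24, 12.88, 12.97 and 13.11 at 48 h, a fall of -2.15 ± 0.09. Ccl7 fell by 2.16 ± 0.10 and Ccl9 differed by -2.19 ± 0.09. No value of the 2 groups overlapped in any of these 3 chemokines, as the rule that chose them required. Ccl2 and Ccl7 had been above the carrier at 6 h, by 0.49 and 0.47, and were below it at 48 h, at -1.67 and -1.69. Cxcl10, a chemokine for T cells, went from 1.12 above the carrier at 6 h to -0.37 at 48 h, a fall of -1.49 ± 0.08. Of 18 tested targets of NF-kB and inflammatory signals, 13 fell, 1 rose (the chemokine gene Ccl5, by 0.63) and 4 were not called, with a median of -0.71 against -0.0048 over all genes. The median within slide 2 was -0.69. Of 25 genes written for this list, 7 did not pass the filter on dim probes. Interferon-stimulated genes had 4 lower and 2 higher of 16 tested and a median of -0.06 (3 lower and 0 higher without the shared arrays). Ifi27l2a, an interferon-induced gene outside that list, fell by 1.65 ± 0.07, and Ddx58, a sensor of viral RNA, by 0.67 ± 0.06 (another probe gave -0.20 and was not called).

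**Figure D2:**
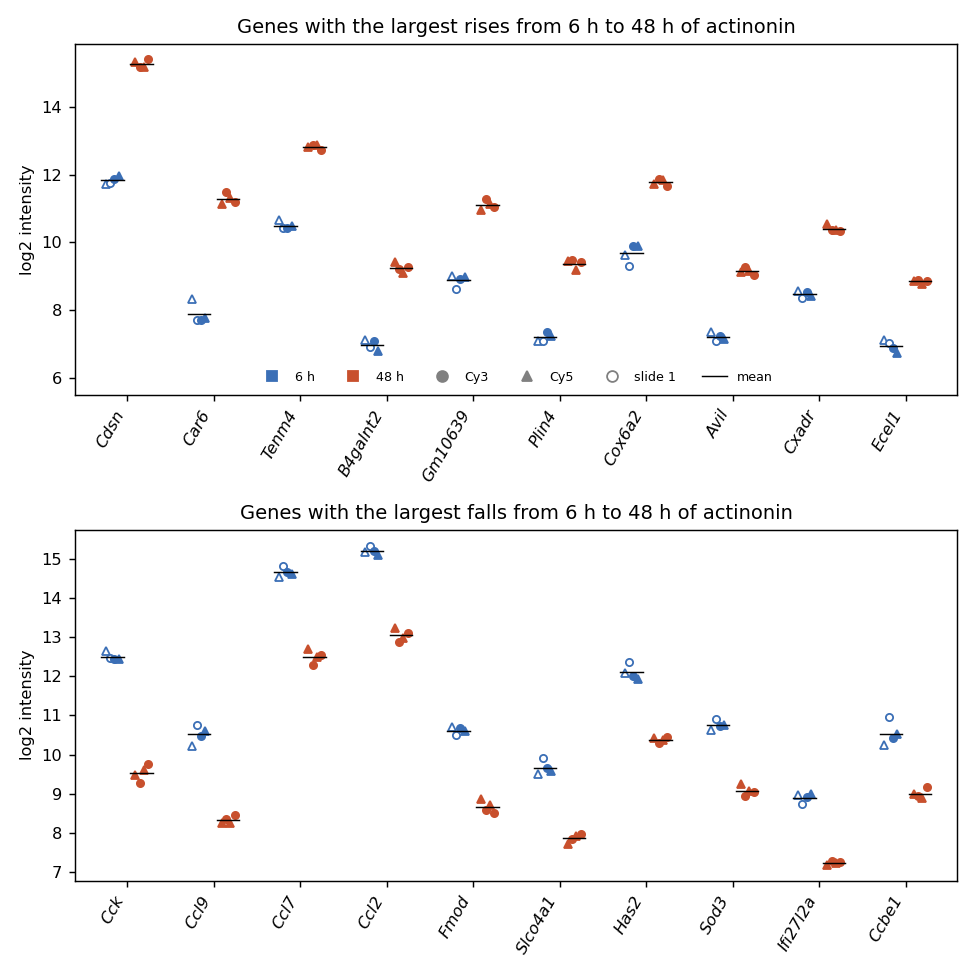
Log2 intensity (y axis, dye and slide terms removed) of the 10 named genes with the largest rises (top) and the 10 with the largest falls (bottom), with 4 samples of 6 h and 4 of 48 h each. Circles are Cy3, triangles Cy5, open symbols slide 1 and bars the means. The groups do not overlap in any of the 20 genes, which the rule that chose them required.

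Genes of the extracellular matrix and of growth factors were mostly lower at 48 h. Col1a1, a chain of type I collagen, stood at 17.44, 17.03, 17.36 and 17.18 at 6 h and at 16.21, 15.83, 15.97 and 15.92 at 48 h, a fall of -1.26 ± 0.08. The groups did not overlap. Of 14 tested collagens 9 fell and 1 rose, with a median of -0.49 both in all samples and within slide 2. Col11a1 fell by 0.95 ± 0.09 and Col6a1 by 0.65 ± 0.07, while Col18a1, a collagen of basement membranes, rose by 0.50 ± 0.05. Of 28 other matrix and contractile genes 15 fell and 2 rose. The median of these 28 on the shared arrays was -0.12 with 48 h in Cy5 and -0.51 with 48 h in Cy3. Fmod, a proteoglycan that binds collagen, fell by 1.94 ± 0.11, with no overlap of the groups, as its choice among the largest falls required. Has2, the synthase of hyaluronan, fell by 1.73 ± 0.11, the elastic fibre gene Fbln5 by 0.94 ± 0.07 and Thbs2, a thrombospondin, by 0.89 ± 0.06. Sod3, the superoxide dismutase of the extracellular space, fell by 1.68 ± 0.10, the secreted protein gene Ccbe1 by 1.55 ± 0.15 (other probes gave -0.37 and -0.80) and the organic anion transporter gene Slco4a1 by 1.82 ± 0.11.

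Among matrix proteases and their inhibitors, 8 of 17 tested fell and 3 rose (5 and 1 without the shared arrays). Mmp9, a gelatinase, was at 8.72, 9.57, 9.27 and 9.22 at 6 h and at 8.03, 7.94, 7.78 and 7.99 at 48 h, a fall of -1.25 ± 0.16, and the inhibitor gene Timp1 fell by 0.76 ± 0.09. Mmp11, known as stromelysin 3, rose by 0.65 ± 0.05. Mmp3 was well above background in all 4 samples of 6 h and in none of 48 h, and was at least 1.53-fold lower. On the same terms Cd300lb, a receptor of myeloid cells, was at least 1.44-fold lower. Adamtsl1, a protein of the matrix, was called lower at -0.61 ± 0.12. Its bound (1.53-fold) slightly exceeded this fitted change and is no strict limit. Without the shared arrays Adamtsl1 stood at -0.35 on the log2 scale, under that bound, and was not called (adjusted p = 0.337). Growth factors and hormones fell in 15 of 24 and rose in 2, with a median of -0.40. Igf1, the insulin-like growth factor, stood at 9.56, 9.16, 9.29 and 9.30 at 6 h and at 7.79, 7.85, 7.82 and 7.92 at 48 h, a fall of -1.49 ± 0.07 (other probes gave -0.28, -0.73 and -1.35). The 2 that rose were Igfbp4, which binds insulin-like growth factors, by 1.59 ± 0.07 and the angiopoietin-like factor gene Angptl6 by 1.65 ± 0.09.

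The fall in collagens came with lower levels of fibroblast markers. Of 14 such markers, which include 3 of the collagens, 10 fell and 0 rose, among them the receptor genes Pdgfrb by 0.72 ± 0.07 and Pdgfra by 0.61 ± 0.06. Their mean level per sample was 13.9 to 14.1 at 6 h and 13.5 to 13.6 at 48 h. The median of the 14 on the shared arrays was -0.20 with 48 h in Cy5 and -0.69 with 48 h in Cy3. In bulk samples fewer cells of a type and less RNA per cell cannot be told apart. Markers of other cell types moved singly. Of 12 epithelial and keratinocyte markers 7 were tested, and Cdsn and Krt19 rose, Krt19 by 0.79 ± 0.08. Cdh1, Epcam, Krt8, Krt18 and Ivl, which are defining genes of those cells, did not pass the filter, and the mean level of the 7 was 8.03 to 8.17 at 6 h and 8.63 to 8.70 at 48 h. Of 6 tested macrophage and leukocyte markers 2 fell, Cd14 by 1.01 ± 0.08 and Lyz2 by 0.32 ± 0.06. Lyz2 was well above background in 1 of 4 samples of 48 h. Ptprc, Cd68 and Tyrobp were among those that did not pass the filter. The mean level of the 6 was 9.65 to 9.81 at 6 h and 9.49 to 9.57 at 48 h. Of 4 tested adipocyte markers 2 fell, Fabp4 by 1.02 ± 0.07 and Pparg by 0.37 ± 0.06. Fabp4 was well above background in 1 of 4 samples of 48 h. The mean level of the 4 was 9.44 to 9.52 at 6 h and at most 9.02 at 48 h. Of 4 tested muscle markers the troponin gene Tnnt2 fell by 1.27 ± 0.08 and the actin gene Acta1 rose by 0.28 ± 0.06. Their mean level was 9.51 to 9.70 at 6 h and 9.31 to 9.42 at 48 h. In the endothelial list Vwf, well above background in no sample of 6 h, was called at least 1.13-fold higher. Its groups overlapped, though, and 9 other ways of processing did not call it, among them slide 2 alone. The 4 tested markers had a mean level of 8.44 to 8.48 at 6 h and 8.49 to 8.58 at 48 h. In the neural list Tubb3 was called lower at -0.34 ± 0.08 with overlapping groups, and stood at -0.08 without the shared arrays, where it was not called. The 8 tested markers had a mean level of 9.47 to 9.58 at 6 h and 9.35 to 9.53 at 48 h. Lyz2, Pparg and Acta1 were not called without the shared arrays either (-0.28, -0.18 and 0.38). The part of these markers in the other results was not tested.

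Genes of cholesterol synthesis were lower almost throughout. The pathway turns acetyl-CoA through mevalonate and squalene into cholesterol, and the transcription factor SREBP2 is known to drive its genes when sterols run low. Of 25 genes 24 fell, 0 rose and Ggps1 was not called (0.11). The median was -0.85, and -0.76 within slide 2, where 22 fell and 1 rose. Cyp51, the lanosterol demethylase, was at 10.82, 10.89, 10.69 and 10.78 at 6 h and at 9.74, 9.55, 9.58 and 9.80 at 48 h, a fall of -1.14 ± 0.07. Pmvk, the phosphomevalonate kinase, was at 13.38, 13.53, 13.39 and 13.34 at 6 h and at 12.40, 12.32, 12.43 and 12.31 at 48 h, a fall of -1.05 ± 0.06. In 24 of the 25 genes the 48 h values all lay below the 6 h values, where 17.6% of all genes tested showed that order. The list's median against the carrier was -0.37 at 6 h and -1.25 at 48 h.

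The promoters of these genes were read from the RefSeq table (assembly GRCm38.p6, 250 bases before to 50 after the start, 27025 genes), and 12 motifs were searched on both strands. The CCAAT box, bound by NF-Y, a factor that acts beside SREBP2 at sterol genes, was present in 16 of 17 matched promoters of the list (94.1%) and in 37.9% of all. The longer sterol regulatory element was in 0 of the 17 and in 0.244% of all. Its core, CACNCCA, was in 4 of 17 (23.5%) and in 18.3% of all. The CCAAT box was also in 12 of 15 promoters of clock genes. It was in 16 of 20 of the unfolded protein response of the endoplasmic reticulum (80.0% in each list). A link of these motifs to the falls was not tested. The stretches below show the box (capitals) in Pmvk (chr3:89454377-89454437, plus strand) and Cyp51 (chr5:4104694-4104754, minus strand), as examples of the motif that most members share.
Pmvk: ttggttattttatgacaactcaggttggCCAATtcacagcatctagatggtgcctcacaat
Cyp51: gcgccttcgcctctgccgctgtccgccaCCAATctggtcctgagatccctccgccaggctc

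Genes of G2 and mitosis fell together by smaller amounts. Of 30 genes 29 fell and 0 rose, with a median of -0.50 (-0.52 within slide 2), and Cenpf was not called (-0.22). Cdc20, which activates the anaphase-promoting complex, stood at 14.70, 14.73, 14.83 and 14.75 at 6 h and at 14.01, 13.85, 13.87 and 13.95 at 48 h, a fall of -0.83 ± 0.05 (adjusted p = 1.32e-09). Birc5, which encodes survivin of the chromosomal passenger complex, fell by 0.81 ± 0.05, the topoisomerase gene Top2a by 0.65 ± 0.05 and Cenpa, the histone variant of centromeres, by 0.54 ± 0.04. In 29 of the 30 genes all 48 h values lay below all 6 h values, against 17.6% of all genes tested. Genes of G1/S and DNA replication had 15 of 40 lower (6 without the shared arrays), 3 higher and a median of -0.08. The ribonucleotide reductase genes Rrm2 and Rrm1, which make deoxynucleotides, fell by 0.59 ± 0.07 and 0.50 ± 0.04, and the thymidine kinase gene Tk1 by 0.47 ± 0.04. Of 8 inhibitors of cyclin-dependent kinases Cdkn3 and Cdkn2d were lower and Cdkn1b was higher. Cdkn1c, well above background in no sample of 48 h, was called lower at -0.40 ± 0.08. None of the 8 was called without the shared arrays, where Cdkn1c stood at -0.20, and Cdkn2d and Cdkn1b were not called under 15 and 7 of 25 other ways of processing. Cdkn1a, which encodes p21, differed by -0.20 ± 0.08 and was not called (adjusted p = 0.0607), with groups that overlap at 13.97, 14.25, 14.10 and 14.08 against 14.01, 13.85, 13.90 and 13.84. Among 20 p53 targets 6 rose and 6 fell (3 and 3 without the shared arrays). Perp, a membrane protein of desmosomes, rose by 1.13 ± 0.08, and Phlda3, an inhibitor of AKT, fell by 0.54 ± 0.05.

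The cell cycle homology region, written here TTTGAA, and the CCAAT box are bound by the DREAM complex and NF-Y in promoters of mitotic genes. TTTGAA was in 18 of 24 matched promoters of the G2/M list and in 18.1% of all, and CCAAT in 21 of 24 (87.5%) and in 37.9% of all. Cdc20 (chr4:118437335-118437408, minus strand) and Top2a (chr11:99024195-99024428, minus strand) hold both, in capitals, also where they lie on the opposite strand as TTCAAA or ATTGG. They are shown because both motifs stand close to the start of genes that fell.
Cdc20: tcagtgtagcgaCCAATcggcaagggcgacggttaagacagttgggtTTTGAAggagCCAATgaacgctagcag
Top2a: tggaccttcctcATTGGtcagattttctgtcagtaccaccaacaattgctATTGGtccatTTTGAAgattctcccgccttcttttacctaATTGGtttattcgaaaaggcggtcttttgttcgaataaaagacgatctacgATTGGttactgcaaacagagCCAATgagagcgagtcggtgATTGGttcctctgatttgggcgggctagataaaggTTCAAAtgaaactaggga

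**Figure D3:**
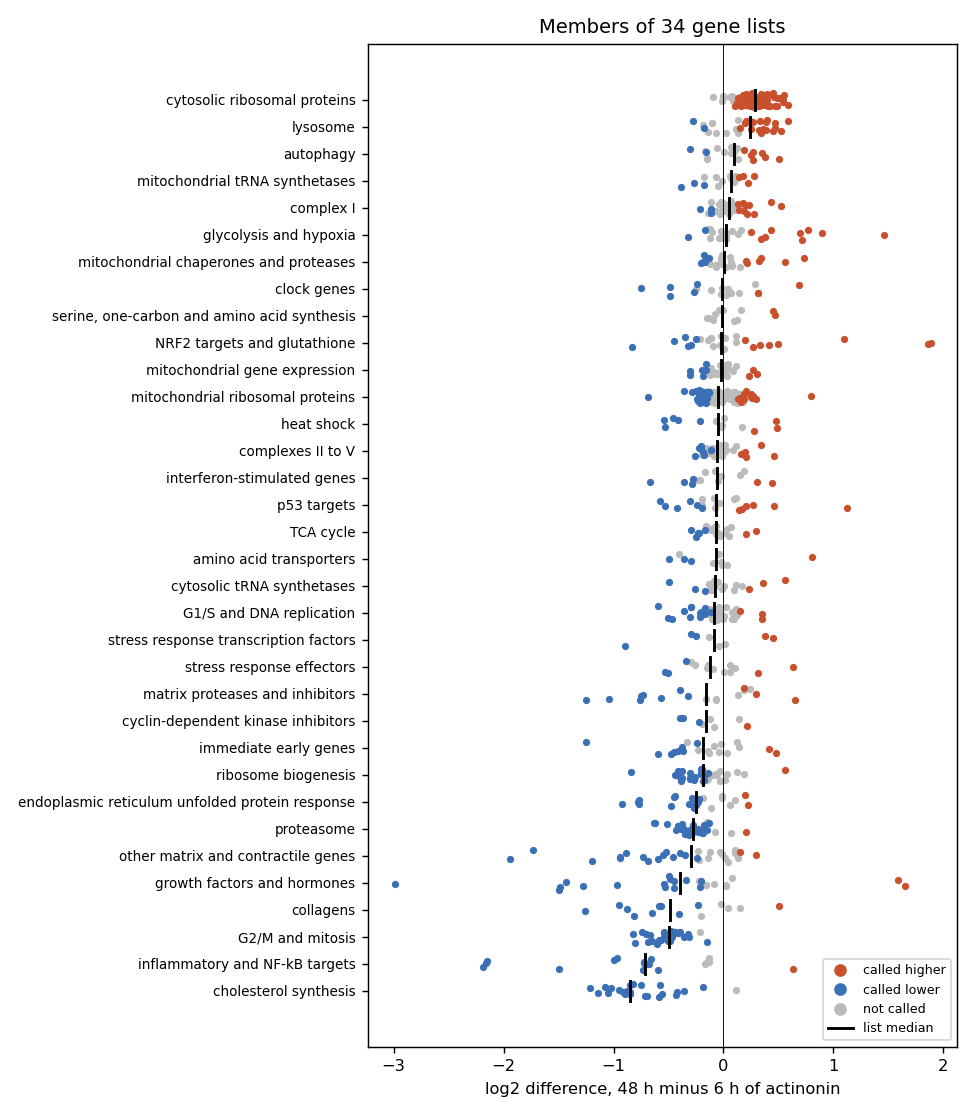
Each point is a tested member of 1 of 34 gene lists, at its log2 difference of 48 h minus 6 h (x axis), coloured where called, with a bar at the list's median. Cholesterol synthesis (-0.85) and inflammatory genes (-0.71) have the lowest medians, and cytosolic ribosomal proteins (0.29) and lysosomal genes (0.24) the highest.

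Proteasome subunits degrade proteins in the cytosol and nucleus. Of 31 proteasome subunits 27 fell and 1 rose (Psmd8, by 0.20), with a median of -0.28 in all samples and within slide 2, and 11 fell without the shared arrays. Psmd12 and Psmd3, subunits of the regulatory particle, fell by 0.63 ± 0.05 and 0.62 ± 0.05. Psmd12 was at 14.93, 14.90, 14.95 and 14.84 at 6 h and at 14.32, 14.25, 14.25 and 14.27 at 48 h, with no overlap. Of 24 genes of the unfolded protein response of the endoplasmic reticulum 16 fell and 2 rose, with a median of -0.25. Hsp90b1, a chaperone of that compartment, fell by 0.92 ± 0.07, and the disulfide isomerases Pdia6 and Pdia3 by 0.77 ± 0.08 each. Without array 7, 10 genes of this list fell, and without the shared arrays also 10. The heat shock genes had no common direction, with 5 of 14 lower and 3 higher. Hspa4 was called lower (-0.54 ± 0.07) by the probe that stands for it, while another of its probes was called higher (0.31 ± 0.12).

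Lysosomal genes, which digest proteins, sugars and lipids taken up or delivered by autophagy, were mostly higher. Of 30 genes 19 rose and Ctsz and Ctsh fell, with a median of 0.24 (0.25 within slide 2), and 9 rose without the shared arrays. Tpp1, a peptidase, stood at 10.82, 10.65, 10.71 and 10.73 at 6 h and at 11.41, 11.23, 11.23 and 11.39 at 48 h, a rise of 0.59 ± 0.05. Hexa, a subunit of hexosaminidase, rose by 0.52 ± 0.07, the protease gene Ctsl by 0.47 ± 0.06 and the channel gene Mcoln1 by 0.36 ± 0.05. Of 20 autophagy genes 7 rose and 2 fell, where 15.8% and 17.9% of all genes tested rose and fell. Without the shared arrays 2 of them rose and 2 fell. Map1lc3b, whose product coats autophagosomes, rose by 0.51 ± 0.05, and the mitophagy receptor gene Bnip3l by 0.37 ± 0.05. The E-box CACGTG, which is bound by TFEB and many other factors, was in 11 of 22 matched lysosomal promoters (50.0%) and in 7.24% of all. The longer TCACGTGA, which contains it, was in 5 of 22 (22.7%) and in 1.01% of all. CACGTG was also in 8 of 26 promoters of ribosome biogenesis genes (30.8%), which were mostly lower, and in 5 of 15 of clock genes (33.3%). A link of the motif to the rises was not tested. Ctsl (chr13:64370711-64370770, minus strand) and Mcoln1 (chr8:3500434-3500493, plus strand) show the E-box in capitals in genes that rose.
Ctsl: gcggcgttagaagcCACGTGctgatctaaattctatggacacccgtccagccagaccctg
Mcoln1: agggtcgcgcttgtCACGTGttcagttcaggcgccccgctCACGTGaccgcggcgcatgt

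Cytosolic ribosomal proteins rose in 68 of 78 tested genes and fell in 0, by small amounts (median 0.29, and 0.28 within slide 2). Rps27 was at 16.70, 16.80, 16.61 and 16.77 at 6 h and at 17.18, 17.38, 17.19 and 17.29 at 48 h, a rise of 0.54 ± 0.06. Rpl36a rose by 0.51 ± 0.05, Rpl13a by 0.45 ± 0.04 and Rpl28 by 0.40 ± 0.04. In the fit without the shared arrays 39 rose. The list's median on the shared arrays was 0.47 with 48 h in Cy5 and 0.10 with 48 h in Cy3. Many of these genes have near-identical processed copies in the genome, which probes cannot separate. Genes of ribosome biogenesis went the other way, with 20 of 32 lower, only Pes1 higher (0.56 ± 0.08) and a median of -0.19. Another probe of Pes1 gave -0.10 and was not called (adjusted p = 0.186). Ddx21, an RNA helicase of the nucleolus, stood 0.37 above the carrier at 6 h and at -0.47 at 48 h, a fall of -0.84 ± 0.08 (another probe gave -0.22). Wdr43 and Nolc1, factors of early ribosome assembly, fell by 0.40 ± 0.07 and 0.38 ± 0.06, and another probe of Nolc1 gave -0.15 and was not called. The fit without the shared arrays had 2 of the 32 lower.

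**Figure D4:**
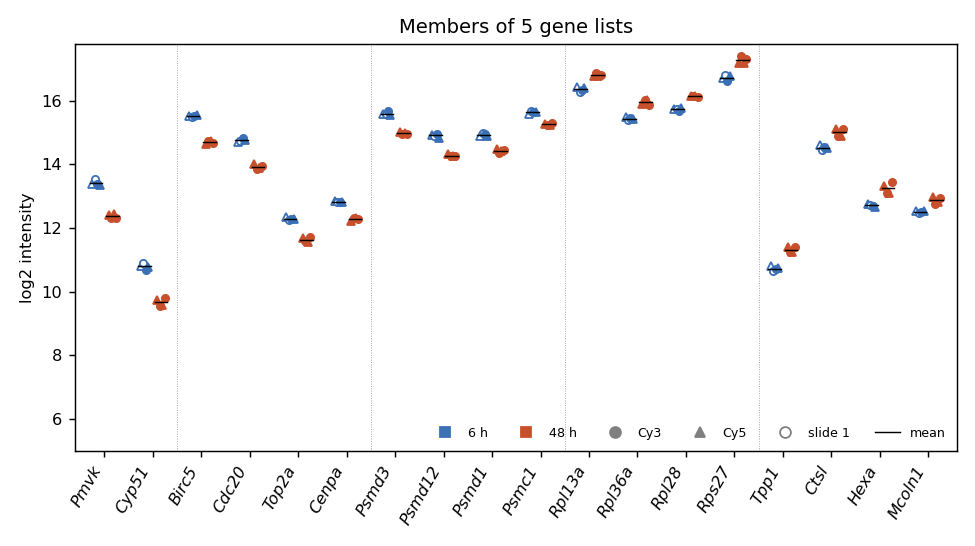
Log2 intensity (y axis, dye and slide terms removed) of 2 members of the list for cholesterol synthesis and 4 each of those for G2/M, proteasome, cytosolic ribosomal proteins and lysosome, from left to right, with 4 samples of 6 h and 4 of 48 h. Circles are Cy3, triangles Cy5, open symbols slide 1 and bars the means. The 48 h samples lie below the 6 h samples in the members shown of the first 3 lists and above them in the others. All were chosen from the 4 members of their list with the lowest adjusted p.

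Genes of the integrated stress response had no common direction between the times in the fit of all samples. Of 8 transcription factors of the response 3 were lower at 48 h and 2 higher, and of 14 of its effectors 3 were lower and 2 higher. Over all genes tested 17.9% were lower and 15.8% higher. Within slide 2, 4 of the factors were lower and 2 higher, and 7 of the effectors were lower and 1 higher. Of all 24250 genes tested, 4506 were lower and 3919 higher in that fit. Without the shared arrays 1 factor and 1 effector were lower, and 2 of each were higher. The median against the carrier was 1.15 at 6 h and 0.88 at 48 h for the factors and 1.25 and 0.89 for the effectors. The lists' medians between the times were -0.09 and -0.12 in all samples, -0.22 and -0.19 within slide 2, and 0.06 and 0.18 without the shared arrays, which takes 2 samples from each time.

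Members went different ways. Nupr1, a chromatin-associated stress protein, stood at 14.69, 14.70, 14.92 and 14.84 at 6 h and at 13.91, 13.88, 13.88 and 13.83 at 48 h, a fall of -0.90 ± 0.07 (adjusted p = 1.23e-08). It was 1.25 above the carrier at 6 h and 0.35 above it at 48 h. Gdf15, a stress hormone, went from 1.27 above the carrier to 0.74, and fell by 0.53 ± 0.09. Without the shared arrays it fell by 0.22 and was not called. Rab39b fell by 0.51 ± 0.06, the secreted glycoprotein gene Stc2 by 0.34 ± 0.09 and Atf3, a repressor induced by stress, by 0.29 ± 0.08. Without the shared arrays Stc2 stood at 0.04 and Atf3 at -0.15, neither called. Gadd45a, a growth arrest gene, rose further, from 12.43, 12.43, 12.67 and 12.64 at 6 h to 13.15, 13.20, 13.11 and 13.20 at 48 h, by 0.64 ± 0.08, and it stood 2.50 and 3.13 above the carrier at the 2 times. Ddit3, which encodes CHOP, rose by 0.38 ± 0.09, with 6 h values of 12.34 to 12.72 and 48 h values of 12.83 to 12.99. Its rise was 0.23 within slide 2 and 0.77 without the shared arrays. Atf5, which encodes a factor of mitochondrial stress, rose by 0.45 ± 0.06 (0.68 without the shared arrays).

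In the fit of all samples, other members of the response were not called, or called with overlapping groups. Trib3, a pseudokinase that binds ATF4, stood at 15.72, 15.79, 16.21 and 15.96 at 6 h and at 15.80, 15.76, 15.94 and 15.97 at 48 h, a difference of -0.04 ± 0.13 (adjusted p = 0.848). It was 2.40 and 2.36 above the carrier at the 2 times. The fit within slide 2 called Trib3 lower at -0.25 (adjusted p = 0.00607), and the shared arrays gave -0.31 and -0.30. Without the shared arrays it stood at 0.53 and was not called. Fgf21, a hormone released under mitochondrial stress, differed by -0.26 ± 0.14 (adjusted p = 0.178), with overlapping groups. The fit within slide 2 called it lower at -0.50 (adjusted p = 0.000861), and the shared arrays gave -0.42 and -0.51. Without the shared arrays Fgf21 stood at 0.34 and was not called. Atf4 itself was at 17.45, 17.72, 17.55 and 17.45 at 6 h and at 17.30, 17.07, 17.36 and 17.53 at 48 h. It was called lower (-0.25 ± 0.09, adjusted p = 0.0479), but the groups overlapped, the shared arrays gave 0.22 and -0.85, another probe gave -0.02, and 14 of 25 other ways of processing did not call it.

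Most genes of amino acid supply were not called, where 33.7% of all genes tested were called in either direction. Of 12 genes of serine, one-carbon and amino acid synthesis only Aldh1l2 (0.46 ± 0.09) and Cth (0.45 ± 0.11) rose and 0 fell. Within slide 2, 2 rose and 3 fell, and without the shared arrays 4 rose and 0 fell. The list's median against the carrier was 0.68 at 6 h and 0.71 at 48 h. The mitochondrial folate enzyme Aldh1l2 and the cysteine-making enzyme Cth rose by 0.32 and 0.26 within slide 2 and by 0.86 and 0.94 without the shared arrays. Of 10 amino acid transporters Slc38a2, Slc3a2 and Slc7a1 were lower and Slc7a3, a carrier of cationic amino acids, rose by 0.81 ± 0.08. The groups overlapped for Slc3a2 and Slc7a1, which without the shared arrays stood at -0.13 and -0.04 and were not called. Of 20 cytosolic tRNA synthetases 3 rose and 3 fell, where 15.8% and 17.9% of all genes tested rose and fell. Within slide 2, 2 of them rose and 8 fell, and without the shared arrays 5 rose and 0 fell. Wars rose by 0.56 ± 0.07 and stood 1.31 above the carrier at 48 h, Eprs rose by 0.36 ± 0.06 and Tars fell by 0.49 ± 0.08, or by 0.19 without the shared arrays, where it was not called. The element TGATGNAA, bound by ATF4 with C/EBP partners, was in 16 of 50 matched promoters of these 5 lists (32.0%) and in 4.06% of all. Nupr1 (chr7:126625547-126625606), Atf3 (chr1:191183410-191183469) and Tars (chr15:11399640-11399699), all on the minus strand, hold it on the opposite strand, in capitals. They are shown because these genes were above the carrier at 6 h and called lower at 48 h than at 6 h in all samples, Atf3 and Tars only with the shared arrays.
Nupr1: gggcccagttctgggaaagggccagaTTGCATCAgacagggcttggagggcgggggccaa
Atf3: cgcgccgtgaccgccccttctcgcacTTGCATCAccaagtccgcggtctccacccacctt
Tars: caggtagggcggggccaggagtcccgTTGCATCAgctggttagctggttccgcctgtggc

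**Figure D5:**
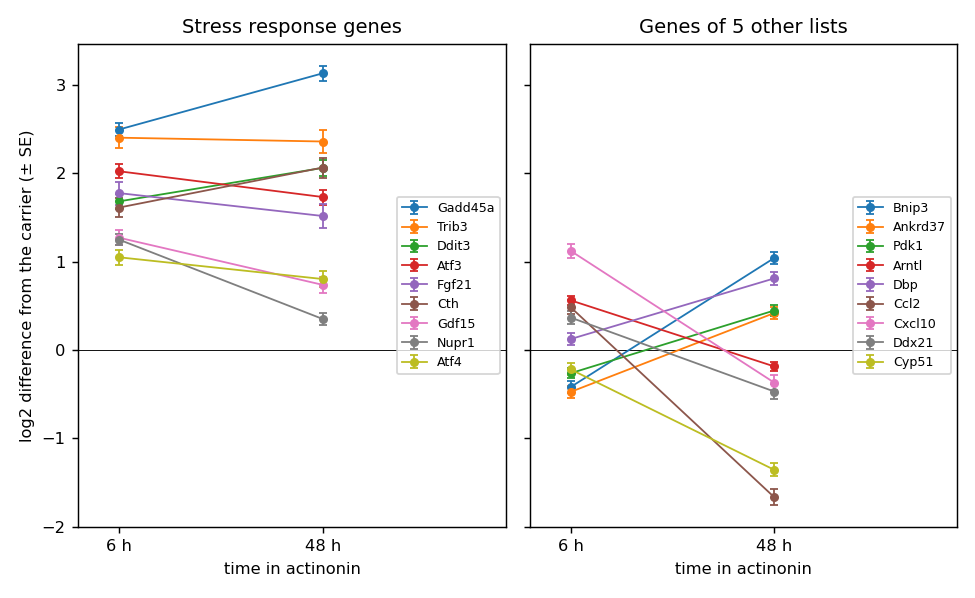
Log2 difference from the 4 carrier samples (y axis, ± standard error) at 6 h and 48 h of actinonin for 9 genes of the stress response (left) and 9 genes of 5 other lists (right), all from 1 fit with the carrier samples in common. Gadd45a (2.50 and 3.13) and Trib3 (2.40 and 2.36) stayed high on the left, while Nupr1 went from 1.25 to 0.35, and on the right Bnip3 went from -0.42 to 1.04 and Ccl2 from 0.49 to -1.67.

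Genes for mitochondrial proteins moved in both directions with medians near 0. Pdf, which encodes the peptide deformylase that actinonin inhibits, was at 11.34, 11.08, 11.24 and 11.17 at 6 h and at 11.10, 11.18, 11.17 and 11.10 at 48 h. It differed by -0.07 ± 0.05 (adjusted p = 0.353), and the groups overlapped. Of 75 mitochondrial ribosomal proteins 13 rose and 21 fell, with a median of -0.05, and 4 rose and 4 fell without the shared arrays. Mrpl23 rose by 0.80 ± 0.05, from 12.60 to 12.86 at 6 h to 13.48 to 13.61 at 48 h, and Mrps6 fell by 0.69 ± 0.05, from 15.77 to 15.84 to 15.08 to 15.18. Of 31 factors of mitochondrial gene expression 3 rose and 6 fell (1 and 1 without the shared arrays), near the shares of all genes tested (15.8% and 17.9%). The RNA-binding pair Slirp and Lrpprc rose by 0.23 ± 0.05 and 0.30 ± 0.07, and the transcription factor gene Tfb2m fell by 0.31 ± 0.07, and Slirp and Tfb2m were not called without the shared arrays. Tfam, the factor that packs mitochondrial DNA, was called lower (-0.16 ± 0.05, adjusted p = 0.0322), and 15 of 25 other ways of processing did not call it. Mitochondrial tRNA synthetases rose in 4 and fell in 3 of 17, where 15.8% and 17.9% of all genes tested rose and fell, and in 1 and 2 without the shared arrays.

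Chaperones and proteases of mitochondria rose in 6 of 24 genes and fell in 5, where 15.8% and 17.9% of all genes tested rose and fell, and rose in 5 and fell in 0 without the shared arrays. Lonp1, a protease of the matrix, stood at 15.23, 15.33, 15.40 and 15.47 at 6 h and at 15.89, 15.85, 15.89 and 16.03 at 48 h, a rise of 0.56 ± 0.06. Hscb, a co-chaperone of iron-sulfur cluster assembly, rose by 0.73 ± 0.09, the chaperone genes Trap1 and Hspa9 by 0.34 ± 0.06 and 0.32 ± 0.06 (Hspa9 by 0.54 without the shared arrays). None of these 4 overlapped between the times, which their choice as the members with the lowest adjusted p favours. Of the 24 genes of the list 7 were higher at 48 h without overlap and 5 lower. The shares over all genes tested were 15.3% and 17.6%. Of 37 complex I subunits 10 rose and 3 fell, Ndufa6 by 0.53 ± 0.05 and Ndufa7 by 0.43 ± 0.06. Without array 7, 7 subunits rose and 0 fell, and without the shared arrays 2 rose and 0 fell. For complexes II to V 5 of 41 rose and 8 fell (0 fell without the shared arrays), and for the TCA cycle 2 of 18 rose and 5 fell (1 and 0).

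In the list of glycolytic and hypoxia genes 9 of 25 rose and 2 fell, with a median of 0.02, and 6 rose and 1 fell without the shared arrays. Bnip3, a mitophagy receptor induced by hypoxia, stood at 11.56, 11.72 and 11.71 in 3 samples of 6 h and higher in the other, a slide 1 sample, and at 13.22, 13.26, 13.21 and 13.15 at 48 h, a rise of 1.46 ± 0.07 (adjusted p = 7.65e-11). All 48 h values lay above all 6 h values. Ankrd37 rose by 0.89 ± 0.07 and Pdk1, which restrains pyruvate dehydrogenase, by 0.71 ± 0.06 (0.47 without the shared arrays). These 3 genes had been below the carrier at 6 h, by -0.42, -0.47 and -0.26, and were above it at 48 h, by 1.04, 0.42 and 0.45. Ndrg1 rose by 0.77 ± 0.06 from a level that was 0.84 above the carrier at 6 h. The glycolytic enzyme genes Pfkl and Aldoa rose by 0.70 and 0.34, while Pkm fell by 0.32 and Hk1 by 0.17, and the glycolytic genes Gapdh, Pgk1, Eno1 and Ldha were not called.

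Some transcription factors changed with time. Of 20 immediate early genes 8 fell and 2 rose (5 and 0 without the shared arrays). Egr2, a zinc-finger factor, fell by 1.25 ± 0.09, from 9.60 to 9.67 at 6 h to 8.23 to 8.49 at 48 h, and Jun by 0.45 ± 0.07, while Jund rose by 0.42 ± 0.07 and was not called without the shared arrays (0.25). Of 17 clock genes 5 fell and 3 rose (2 and 2 without the shared arrays), where 17.9% and 15.8% of all genes tested fell and rose. Arntl, which encodes the activator BMAL1, was at 11.13, 11.29, 11.23 and 11.19 at 6 h and at 10.43, 10.51, 10.47 and 10.45 at 48 h, a fall of -0.75 ± 0.05, and Dbp, an output gene of the clock, rose by 0.69 ± 0.08. The groups did not overlap in either gene, and the 2 times sample the daily cycle at 1 point each. Txnip, an inhibitor of thioredoxin and glucose uptake, fell by 0.42 ± 0.11, from -0.82 against the carrier at 6 h to -1.25 at 48 h. Without the shared arrays it fell by 0.15 and was not called. Hexim1, an inhibitor of the elongation factor P-TEFb, rose by 0.18 ± 0.05 and stood at -0.98 and -0.80 against the carrier. It was not called under 4 of 25 other ways of processing.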

How the data were processed

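Total RNA of 20 MEF samples was amplified, labelled and hybridised in pairs on 10 arrays, per the labels' protocols. The deposited intensity values are median spot and background signals from Agilent Feature Extraction (10.7.3.1 for slide 1 and 11.0.1.1 for slide 2, per the file headers), so the software version changed with the slide and cannot be separated from it. The authors' deposited series matrix holds log2 values with medians of 6.90 to 6.91, and each column fitted its own channel best. It was used as an alternative. R 2.15 and limma were named in the submitters' processing notes. How they were applied is not given in the sources used here. All 20 files equalled the copy of their array partner.

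Signals were corrected by normexp (offset 50), normalized by loess within arrays and Aquantile between them, in R 4.3.3 with limma 3.58.1. Both normalizations presume that the bulk of genes stay level. Of 62976 spots, 3671 controls were left out. Names came from RefSeq accessions (20869 of 22232 matched, assembly GRCm38.p6), and 29099 of 55681 probes stayed unnamed. The annotation in the file headers is of build mm9. A probe was kept if 4 or more of the 20 samples had it well above background, and the brightest stood for its gene. Other probes of called genes moved in the same direction in 85.4% of 1989 cases.

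Each gene was fitted over all 20 samples with group, dye and slide as terms and the array as a random block (correlation 0.25), with 13 residual and 4.48 prior degrees of freedom. Tests were two-sided. Dye and slide terms passed the threshold for 6397 and 10645 genes. A gene well above background in no sample of a group was given a lower bound. It was computed in each dim sample from its own value or that of the dimmest probe well above background, whichever was higher. In some genes, among them Adamtsl1 and Cdkn1c, this bound slightly exceeded the fitted change, which was then given instead. On simulated data of 24250 genes for 48 h against 6 h, 22 of 50 changes of 0.3, 41 of 50 of 0.5, and 50 of 50 each of 1 and of 2 (log2) were recovered. Of the unchanged genes 17 were called. The simulation changed far fewer genes than were called in the data, so its recovery shares need not hold there.

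Genes were named by a rule: the 10 largest rises and falls with signal in both groups, no overlap and the same direction on both shared arrays, at most 3 genes with only a bound each way, the 4 members of each list with the lowest adjusted p, called or not, and 14 fixed genes. Of 34 lists and 7 marker lists, members were chosen with earlier results of these data known. Genes named outside this rule, as a list's exceptions or further examples, were chosen after their values were seen, and a few that fall under it are not reported here. Alternatives covered background correction, normalization, filter, probe choice, samples, dye, slide, array and replicates.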

Additional observations from a re-analysis of the deposited data

Results flagged for a closer look

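In 380 sets of 4 samples (1 gene at 1 time), 20 sets (5.26%) held a sample whose gap to its nearest neighbour was large against the set's whole range (above Dixon's critical value at the 95% level), and chance gives about 1 in 20. At 6 h there were 13, of which 6 came from 1 slide 1 sample and 5 from the other. The gap was 0.8913 of the range for Car6, where 1 slide 1 sample was at 8.33 and the others at 7.71 to 7.78, 0.8585 for Cck, 0.901 for Slc3a2, 0.9109 for Gabarap and 0.8429 for Acta1, all in that sample. In the other slide 1 sample it was 0.9346 for Jun, 0.8701 for Perp, 0.8594 for B2m, 0.8312 for Cd14, 0.9608 for Ndufa7 and 0.841 for Adamtsl1. It was 0.8999 for Lor and 0.8323 for Plat in a 6 h sample of slide 2. At 48 h the gap was 0.9351 for Bhlhe40, 0.8903 for Cxadr and 0.8339 for Map3k19 in 1 sample, 0.9808 for Des and 0.9619 for Cox6c in the sample of array 7, 0.9049 for Tubb3 and 0.8827 for Ndufa13. The highest 48 h value of Des was 6.95 against 6.43 to 6.44 in the others, and the highest of Cxadr 10.54 against 10.35 to 10.37.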

How the results depend on the processing

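The comparison was repeated under 25 other settings, 1 of them (without array 7, the brightest) chosen after seeing the data. With the 8 samples of 6 h and 48 h alone, 1134 genes were higher and 1371 lower, and the array correlation then rests on the shared arrays. Without the shared arrays 1643 were higher and 1809 lower. Leaving out 1 sample at a time gave 3101 to 4136 higher and 3474 to 4506 lower. Other settings stayed within 1.5 times. Of 170 called named genes, 105 were called in every setting where they were tested. Samples of 6 h and 48 h with the same replicate number and dye were not treated as pairs. Their deviations correlated at -0.35 to -0.04 with dye and slide terms removed and at -0.01 to 0.20 as normalized. Whether samples of 1 time with the same number share a culture was not tested. A replicate block gave 3742 higher and 4525 lower. The sign of a value turned for Trib3 (0.53 without the shared arrays, and -0.10 to 0.16 when 1 sample was left out, with 0.0046, 0.017 and 0.0069 between), Fgf21 (0.34), Stc2 (0.042) and Nkx2-5 (0.088) without the shared arrays, Nkx2-5 with the scanner's processed signals (0.0032) and without 1 sample (-0.12 to 0.033), Des without array 7 (-0.016) and without 1 sample (-0.051 to 0.11), and Kdr (-0.28) and Itgam (0.016) with a mean over probes. The cause was not tested. Of 41 list medians 14 changed sign in some setting. Genes well above background in no sample of a group have only a bound, or a fitted value where the bound exceeded it.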
